A study of Mus musculus with 6 samples.

Results

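RNA-seq counts of 10 genes known as markers of neutrophils and mast cells were examined in cultured mouse uterine stromal cells with and without Pbrm1. The neutrophil genes were S100a8, S100a9, Csf3r, Cxcr2 and Retnlg, and the mast cell genes were Cpa3, Mcpt4, Cma1, Tpsb2 and Fcer1a. They were taken by symbol for the cell type they mark, and all 10 were found among the 54232 genes of the count table. Of these 10 genes, only Csf3r and S100a8 were higher in the Pbrm1 cKO libraries by the test across all genes, and none was lower. Csf3r, the receptor for granulocyte colony-stimulating factor, rose from 13.7 ± 3.17 to 123 ± 8.01 normalized counts (mean ± SD, n = 3 per group). S100a8, a calcium-binding protein abundant in neutrophils, rose from 12.7 ± 7.46 to 34.5 ± 3.17, a call that did not hold without WT replicate 1 or without any of the 3 Pbrm1 cKO libraries. The other 8 genes had at most 17 counts in any library, and Cxcr2 and Fcer1a had none in any. Because these were bulk libraries, more cells of a type and more RNA per cell cannot be told apart. Markers of each cell type were uneven. Among the neutrophil genes Cxcr2, Ly6g, Retnlg, S100a9, Elane and Ngp and the mast cell genes Cpa3, Fcer1a and Ms4a2, a selection made after their values were seen, none exceeded 4 counts in any library. Other genes of the same lists had more, such as Mmp8 with 60 to 562 counts and Kit with 5 to 100. The genes are therefore described by name, and neither cell type is taken to be present or absent.

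The cells came from uteri of pseudopregnant mice on day 4, aged 8 to 12 weeks, with 3 WT libraries and 3 Pbrm1 cKO libraries. Pbrm1 encodes a subunit of the SWI/SNF chromatin remodeler, and in the study's mice its floxed alleles were deleted by a Cre placed in the progesterone receptor gene, so deletion depends on cells that express that receptor. The labels name the controls WT, whereas the study's text names floxed littermates without Cre (Pbrm1 fl/fl). Per the labels, the preparation pooled 5 to 10 uterine horns, and the cells were plated for 4 h, changed to fresh medium and collected 2 h later. No cell sort is described. The study used differential plating and checked stromal purity by vimentin and cytokeratin immunostaining. The study calls its replicates biological, without stating whether each library came from its own culture or its own animals.

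Neutrophils are short-lived white blood cells that leave the bone marrow in response to granulocyte colony-stimulating factor and follow CXC chemokines into tissue through the receptor CXCR2. Their granules hold proteases and antimicrobial proteins, most of which are transcribed in bone marrow precursors and not in the mature cell. S100a8 and S100a9 form the heterodimer calprotectin, and Retnlg encodes a secreted resistin-like protein of mouse neutrophils. Mast cells are tissue-resident cells that depend on KIT and its ligand, bind IgE through a receptor with the chain FCER1A, and store carboxypeptidase A3 (Cpa3), chymases (Mcpt4, Cma1) and tryptases (Tpsb2) in granules. Both cell types are found in the uterus, where their numbers vary with the hormonal state.

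Library totals lay between 13253575 and 18338667 counts. For a gene with 0 counts the limit is 3 counts, or 0.164 to 0.226 CPM (counts scaled to library totals), and this limit covers counting error only. Pbrm1 itself was at 1472 ± 178 normalized counts in WT and at 436 ± 33.9 in Pbrm1 cKO (-1.76 on the log2 scale, SE 0.13, DESeq2 adjusted p = 5.19e-40). The stromal markers Vim and Pdgfra had at least 29062 and 12874 counts in every library. The epithelial markers Epcam and Krt8 had 63 to 286 and 339 to 860 counts. WT replicate 1 stood apart from the other WT libraries in leukocyte transcripts and in those of other cell types. Its 8 pan-leukocyte genes summed to 89.7 CPM, against 201 and 189 in WT replicates 2 and 3 and 640 to 668 in the Pbrm1 cKO libraries. Its endothelial genes summed to 107 CPM, against 315 and 272 in WT replicates 2 and 3. Its platelet genes summed to 12.9 CPM, against 44.4 and 41.9, and its epithelial genes to 115 CPM, against 183 and 177. Its stromal genes summed to 7871 CPM, against 6573 and 6747.

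Promoters are shown for the 2 genes that passed the test and for Cxcr2, which was at 0, because all 3 hold the same short motif. RefSeq sequences for GRCm38.p6, from 250 bases before to 50 bases after the start site, were matched for 9 of the 10 genes. Capitals mark matches to the PU.1-type core GAGGAA on either strand, PU.1 being a factor of myeloid cells. The S100a8 window is chr3:90668821-90669120 on the plus strand, the Csf3r window chr4:126024409-126024708 on the plus strand and the Cxcr2 window chr1:74153744-74154043 on the plus strand.
S100a8: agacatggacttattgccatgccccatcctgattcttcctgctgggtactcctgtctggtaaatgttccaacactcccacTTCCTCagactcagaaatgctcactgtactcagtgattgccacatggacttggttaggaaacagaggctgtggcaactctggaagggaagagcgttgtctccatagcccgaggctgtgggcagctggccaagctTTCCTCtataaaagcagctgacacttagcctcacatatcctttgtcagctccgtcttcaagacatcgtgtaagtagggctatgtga
Csf3r: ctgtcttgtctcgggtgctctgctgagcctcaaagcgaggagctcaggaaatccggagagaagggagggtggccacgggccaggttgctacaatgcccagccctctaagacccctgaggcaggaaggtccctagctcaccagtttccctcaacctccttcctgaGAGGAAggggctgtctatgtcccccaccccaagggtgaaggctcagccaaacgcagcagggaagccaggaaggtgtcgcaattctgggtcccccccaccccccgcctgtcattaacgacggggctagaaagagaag
Cxcr2: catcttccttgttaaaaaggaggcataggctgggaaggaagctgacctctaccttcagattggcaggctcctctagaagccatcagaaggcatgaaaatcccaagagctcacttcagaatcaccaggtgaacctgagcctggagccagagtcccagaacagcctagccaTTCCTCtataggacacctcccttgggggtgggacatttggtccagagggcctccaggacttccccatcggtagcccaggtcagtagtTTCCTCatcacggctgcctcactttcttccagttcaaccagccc

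The PU.1-type core was found in 4 of the 9 promoters (S100a8, Csf3r, Cxcr2 and Fcer1a) and in 28.3% of 32851 mouse promoters of the same length. The C/EBP-type motif TTGCNNAA was found in 3 of the 9 (S100a9, Retnlg and Fcer1a) and in 10.8% of all promoters. The GATA-type motif GATAAG, of the family that includes the mast cell factor GATA2, was found in Mcpt4 and in 7.4% of all promoters. No base was shared between matches of different motifs in these 9 windows. A match gives only the presence of these letters, and a PU.1-type match was present both in genes that were higher and in genes that had no counts.

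Of the 10 genes, 4 had enough counts for an adjusted p, 4 had counts but too few for one, and 2 had no counts. Among all 17474 tested genes, 31.1% passed the threshold, 15.9% as higher and 15.2% as lower in Pbrm1 cKO. Against that background 2 of the 4 tested members were higher. WT and Pbrm1 cKO libraries did not overlap in normalized counts for S100a8 and Csf3r, as for 48.6% of all tested genes, and overlapped for Cma1 and Tpsb2. These 4 genes passed the filter on low values partly through the counts of the group in which they were high, so their share is not that of all 10 members.

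**Figure D1:**
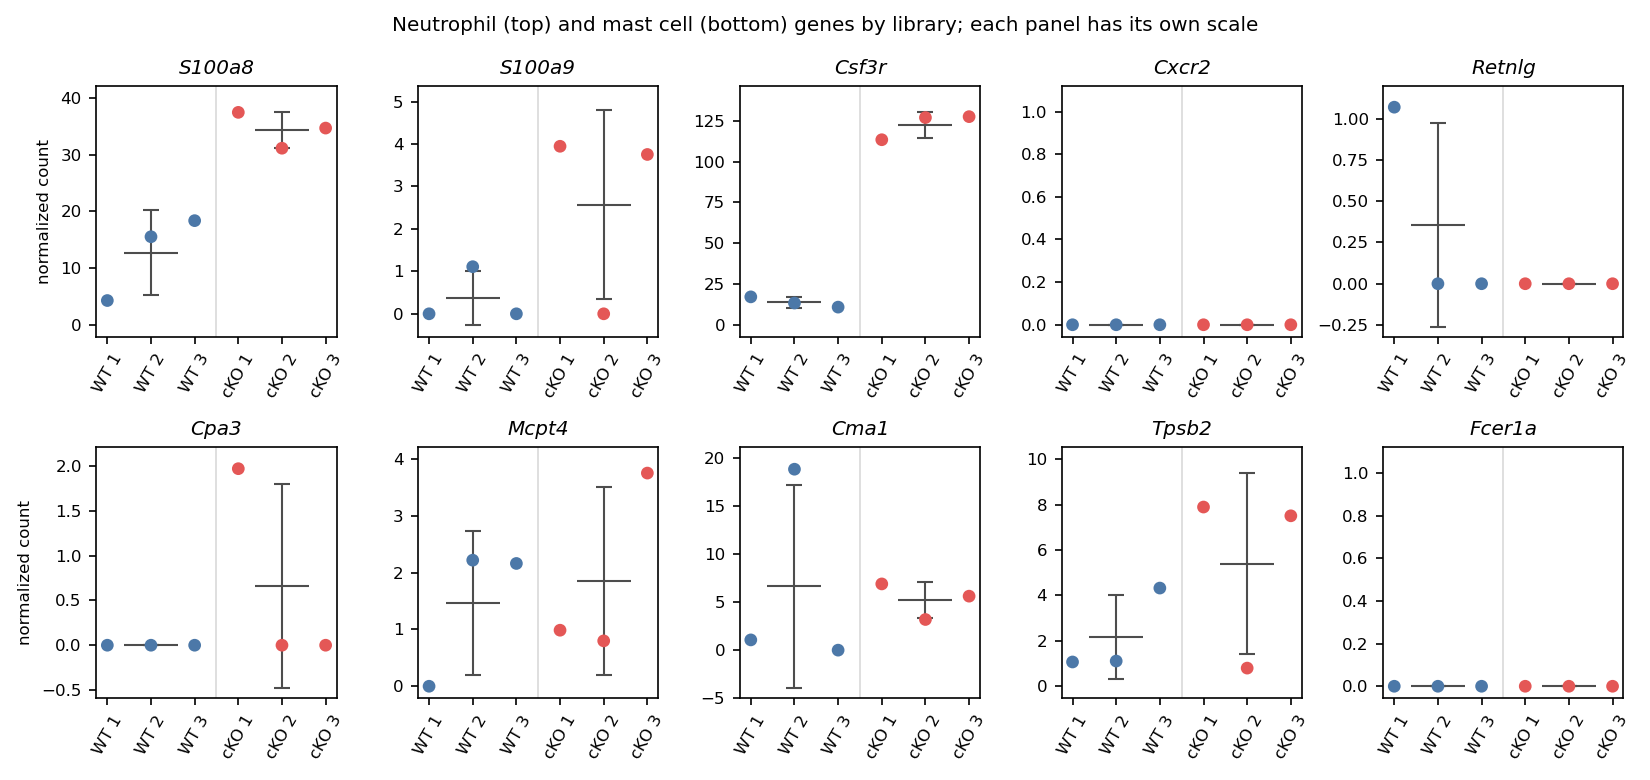
DESeq2 normalized counts (y axis, a separate scale in each panel) of the 5 neutrophil genes (top row) and the 5 mast cell genes (bottom row) in the 3 WT (blue) and 3 Pbrm1 cKO (red) libraries, with grey bars for the group mean ± SD. Csf3r and S100a8 separate the groups, Cma1 is set by WT replicate 2, and Cxcr2 and Fcer1a lie at 0 throughout.

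Among the receptors, Csf3r (ENSMUSG00000028859, chromosome 4, 126024550 to 126044440, plus strand, GRCm38) had 16, 12 and 10 counts in WT replicates 1 to 3 and 115, 159 and 136 counts in Pbrm1 cKO replicates 1 to 3. Every Pbrm1 cKO library was above every WT library by a wide margin. The log2 fold change was 3.16 (SE 0.33, DESeq2 adjusted p = 4.04e-20), and it stayed between 3.01 and 3.35 when each library was left out in turn. Per length, Csf3r was at 0.916, 0.677 and 0.565 TPM (counts scaled by gene length and library) in WT and at 6.99, 7.66 and 7.41 TPM in Pbrm1 cKO. On the same scale Ptprc, which encodes the pan-leukocyte antigen CD45, averaged 2.96 TPM in WT and 13.1 TPM in Pbrm1 cKO.

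Cxcr2 (ENSMUSG00000026180, chromosome 1, 74153989 to 74161246, plus strand), the chemokine receptor by which neutrophils enter tissue, had 0 counts in all 6 libraries. Of the 50-base windows of its transcripts, 6.68% also occurred in transcripts of other genes, against 10.7% for Csf3r. Cxcr1, a related chemokine receptor, was also at 0 in every library. The Pbrm1 cKO libraries thus held 115 to 159 counts of Csf3r and none of Cxcr2 or Cxcr1.

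S100a8 (ENSMUSG00000056054, chromosome 3, 90668978 to 90670035, plus strand) had 4, 14 and 17 WT counts and 38, 39 and 37 Pbrm1 cKO counts. The Pbrm1 cKO libraries lay close together, the WT libraries were spread, and WT replicate 1 was lowest. The log2 fold change was 1.44 (SE 0.50, DESeq2 adjusted p = 0.0166). The call did not hold without WT replicate 1 (1.02, adjusted p = 0.0795), nor without Pbrm1 cKO replicate 1 (adjusted p = 0.114), 2 (0.0739) or 3 (0.0841). It held without WT replicate 2 (adjusted p = 0.0359) or 3 (0.0114), all by DESeq2.

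S100a9 (ENSMUSG00000056071, chromosome 3, 90692632 to 90695721, minus strand), the partner of S100a8 in calprotectin, had 0, 1 and 0 WT counts and 4, 0 and 4 Pbrm1 cKO counts. The counts were too few for an adjusted p. Scaled to library totals the ratio of Pbrm1 cKO to WT was 6.72, with an exact 95% counting interval from 0.900 to 298. Per length, the Pbrm1 cKO libraries averaged 10.8 ± 1.14 TPM of S100a8 and 1.06 ± 0.925 TPM of S100a9 (SD, n = 3). No 50-base window of either gene occurred in transcripts of another gene. In each Pbrm1 cKO library S100a8 was above S100a9 on this scale.

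Retnlg (ENSMUSG00000022651, chromosome 16, 48872621 to 48874496, plus strand) had 1 count in WT replicate 1 and 0 in the other 5 libraries. Both groups were at or under the limit of 3 counts, and no fold is given. No 50-base window of Retnlg was shared with another gene.

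The 5 mast cell genes gave no call in either direction by DESeq2. None of them had an unadjusted p under 0.05, and edgeR and limma voom kept none of them for testing. Cpa3 (ENSMUSG00000001865, chromosome 3, 20215620 to 20242181, minus strand), a defining protease of mast cell granules, had 2 counts in Pbrm1 cKO replicate 1 and 0 in every other library. Fcer1a (ENSMUSG00000005339, chromosome 1, 173221284 to 173227214, minus strand), the IgE-binding chain of the high-affinity receptor, had 0 counts in all 6 libraries. Neither gene shared a 50-base window with another gene. Both genes were thus at or under the limit of 3 counts in each group.

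The chymases were low and uneven. Cma1 (ENSMUSG00000022225, chromosome 14, 55941451 to 55944675, minus strand) had 1, 17 and 0 WT counts and 7, 4 and 6 Pbrm1 cKO counts. WT replicate 2 held 17 of the 18 WT counts and was above every other library, while the other WT libraries were below every Pbrm1 cKO library. The log2 fold change was -0.34 (SE 1.22, DESeq2 adjusted p = 0.877), and without WT replicate 2 it was 3.28, with no adjusted p. Mcpt4 (ENSMUSG00000061068, chromosome 14, 56059629 to 56062313, minus strand) had 0, 2 and 2 WT counts and 1, 1 and 4 Pbrm1 cKO counts, too few for an adjusted p. Of their 50-base windows, 5.38% for Cma1 and 5.48% for Mcpt4 also occurred in transcripts of other genes.

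The tryptase Tpsb2 (ENSMUSG00000033825, chromosome 17, 25366550 to 25368094, plus strand) had 1, 1 and 4 WT counts and 8, 1 and 8 Pbrm1 cKO counts. Pbrm1 cKO replicates 1 and 3 were above all WT libraries, and Pbrm1 cKO replicate 2 was not. The log2 fold change was 1.30 (SE 1.21, DESeq2 adjusted p = 0.471). Its neighbour in function Tpsab1, another mast cell tryptase, had 0, 0 and 2 WT counts and 10, 3 and 7 Pbrm1 cKO counts. Its groups did not overlap, as for 48.6% of all tested genes, but came close. WT replicate 3 had 2.16 normalized counts and Pbrm1 cKO replicate 2 had 2.40. Tpsab1 did not pass the test (log2 fold change 3.11, SE 1.48, DESeq2 adjusted p = 0.0978), and edgeR and limma voom did not keep it for testing. The ratio scaled to library totals was 8.39, with an exact 95% counting interval from 2.04 to 74.1.

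Summed over their 5 genes, the neutrophil markers took 1.51, 2.04 and 1.98 CPM in WT and 10.6, 10.8 and 11.5 CPM in Pbrm1 cKO. Csf3r supplied 115 of 157, 159 of 198 and 136 of 177 of these counts in Pbrm1 cKO replicates 1 to 3, so the sum is largely that gene. The mast cell markers took 0.144, 1.51 and 0.439 CPM in WT and 1.21, 0.327 and 1.17 CPM in Pbrm1 cKO, and the groups overlapped. The highest and lowest mast cell sums were both in WT libraries.

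Neutrophil genes outside the 10 gave calls in both directions. Of 12 genes of granule proteins, 7 were tested, 5 were higher and none was lower (none at an unadjusted p under 0.05 either). The median log2 fold change of those tested was 1.93, against -0.0007 over all tested genes. The higher genes were the collagenase Mmp8 (2.47, SE 0.17, DESeq2 adjusted p = 9.78e-44), the gelatinase Mmp9 (1.93), the iron-binding lactoferrin Ltf (2.84), the siderophore-binding lipocalin Lcn2 (1.19) and the chitinase-like Chil3. Chil3 had 0 counts in every WT library and 30, 41 and 28 in the Pbrm1 cKO libraries, which is at least 9.06-fold higher against 3 counts per WT library. Of these genes, Ltf and Lcn2 are also made by uterine epithelium and Chil3 and Mmp9 by macrophages. Mmp8 is not taken as specific to neutrophils either. In uterine tissue, the study reports abnormally high Ltf protein in the luminal and glandular epithelium of the mutant mice. It reports that the altered protein pattern extended to the mRNA. In the cultured cells sequenced here, the cell source of Mmp8 and of the other higher genes, Ltf included, was not tested. All 5 were also called higher by edgeR, by limma voom and by DESeq2 without WT replicate 1. The azurophil granule genes Elane and Ctsg and the specific granule gene Ngp had 0 counts in all 6 libraries, and Mpo had at most 5 in any. The 2 tested genes that did not pass had negative log2 fold changes, Mpo -0.84 (SE 1.26) and Pglyrp1 -1.19 (SE 1.04). Camp and Prtn3, too low for an adjusted p, had 6 and 4 counts summed over WT and 1 each over Pbrm1 cKO. The rise was thus not shared by all granule genes with counts.

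Of 18 other neutrophil genes, 11 were tested, 5 were higher and 2 were lower, with a median of 0.83. The higher genes were the integrin chain Itgam (2.14), the C-type lectins Clec4d (1.77) and Clec4e (1.10) and the formyl peptide receptors Fpr2 (1.24) and Fpr1 (0.83), all shared with monocytes and macrophages. Without WT replicate 1, 4 genes of the list were higher, and Fpr1 and Fpr2 were not among them. Cd177, a surface protein of neutrophils, had 11, 16 and 6 counts in WT and 0 in every Pbrm1 cKO library, at least 4.41-fold lower against 3 counts per library. edgeR and limma voom did not keep Cd177 for testing, and without WT replicate 2 the number of lower genes in the list was 1. G0s2, a lipase inhibitor that many cell types make, fell from 56.9 ± 2.18 to 20.2 ± 5.77 normalized counts (SD, n = 3 per group, DESeq2 adjusted p = 0.000183). Ly6g, the standard surface marker of mouse neutrophils, had 1 count in WT replicate 3, 1 in Pbrm1 cKO replicate 3 and none elsewhere. Cd177 and Csf3r, both listed here as neutrophil genes, thus moved in opposite directions. Neither Csf3r nor S100a8 is taken as specific to neutrophils. The cell source of Cd177, Csf3r and S100a8 was not tested.

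**Figure D2:**
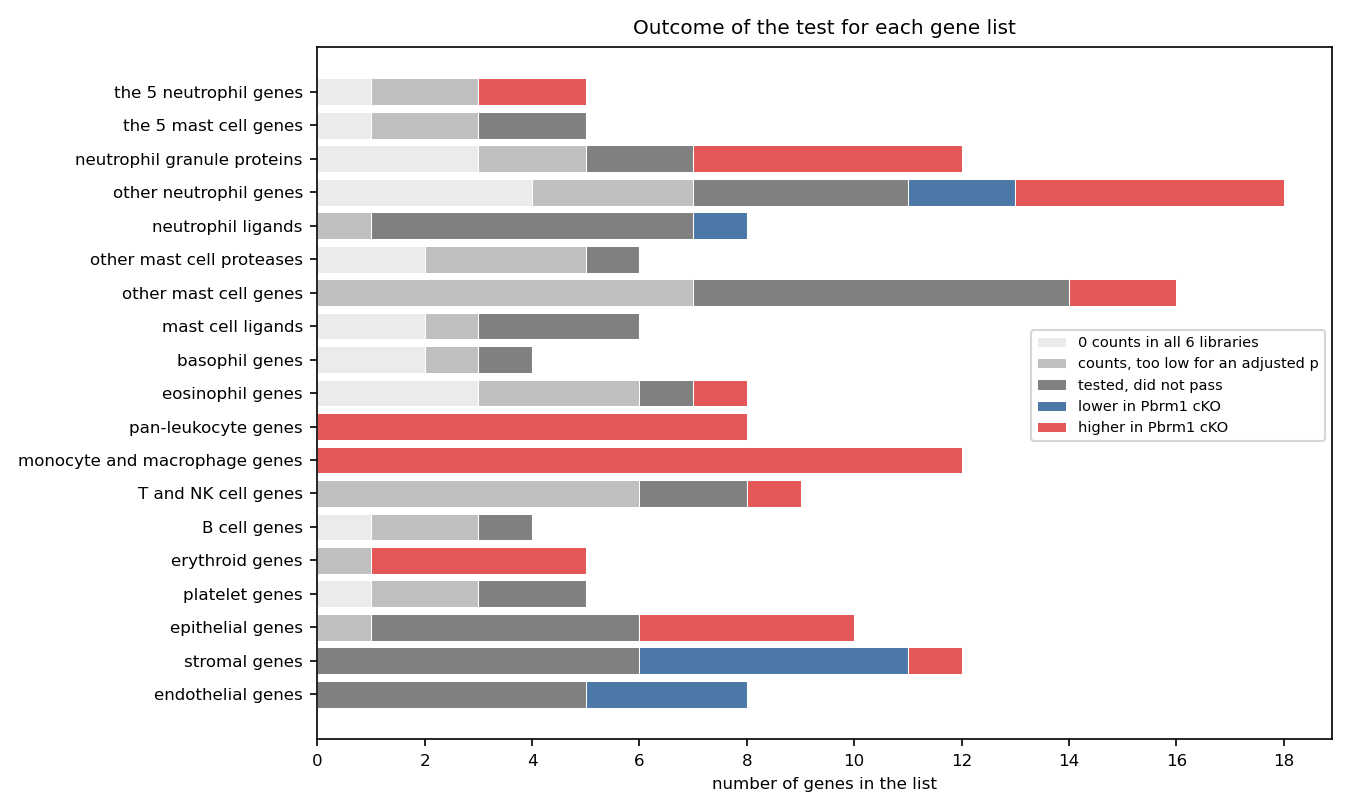
Number of genes (x axis) in each list by outcome of the DESeq2 test across all genes, Pbrm1 cKO against WT (3 libraries each). All 8 pan-leukocyte and all 12 monocyte and macrophage genes are higher, whereas the neutrophil and mast cell lists hold many genes at 0 or with too few counts.

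The ligands that act on neutrophils gave no higher call. Of 8 such genes, 7 were tested, 1 was lower and none was higher. The shares over all tested genes were 15.2% lower and 15.9% higher. The median log2 fold change of the 7 ligands was -0.09. None was higher at an unadjusted p under 0.05 by DESeq2 or edgeR, and 1 (Cxcl3) was by limma voom, with none past its adjusted threshold. Csf3, the ligand of the Csf3r receptor, had 1, 12 and 18 WT counts and 11, 12 and 12 Pbrm1 cKO counts (log2 fold change -0.09, SE 0.78, DESeq2 adjusted p = 0.948). Cxcl1, a ligand of CXCR2, had 28, 136 and 266 WT counts and 137, 142 and 149 Pbrm1 cKO counts, and Cxcl2 had 76, 134 and 315 against 166, 237 and 204. For all 3 ligands the Pbrm1 cKO libraries lay within the range of the WT libraries. Cxcl5, a further CXCR2 ligand, had 54, 186 and 205 WT counts and 68, 95 and 88 Pbrm1 cKO counts (-1.11, SE 0.39, DESeq2 adjusted p = 0.0179). WT replicate 1 was below every Pbrm1 cKO library for Cxcl5, and the number of lower ligands ranged from 0 to 2 as each library was left out.

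Mast cell genes outside the 10 gave 2 calls by DESeq2, both higher. Over all tested genes, 15.9% were higher and 15.2% were lower. Of 6 other proteases, 1 was tested and none passed, with 1 gene higher and 1 lower at an unadjusted p under 0.05 (Tpsab1 and Mcpt2). Of 16 other mast cell genes, 9 were tested by DESeq2, 2 were higher and none was lower. The median of those tested was -0.05, and none was lower at an unadjusted p under 0.05. The higher genes were Fcer1g (2.11, SE 0.23, DESeq2 adjusted p = 1.31e-18), a signalling chain shared by Fc receptors of many myeloid cells, and Hpgds (1.47, SE 0.38, DESeq2 adjusted p = 0.000795), a prostaglandin D2 synthase also made by macrophages. By limma voom 3 genes of this list were higher, as without WT replicate 1, where 2 were lower at an unadjusted p under 0.05. Il1rl1, named after its values were seen, had 364, 1117 and 1162 WT counts and 1740, 2188 and 1896 Pbrm1 cKO counts. It did not pass by DESeq2 on all 6 libraries (0.86, SE 0.50, adjusted p = 0.198). Without WT replicate 1, Il1rl1 was among the genes called higher by DESeq2. Its unadjusted p was under 0.05 by edgeR and by limma voom. Ms4a2, the beta chain of the IgE receptor, had 1 count in 1 library, so of the 3 kinds of chain of that receptor only the shared Fcer1g was present at a measurable level.

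Kit, the receptor on which mast cells depend, had 5, 63 and 59 WT counts and 88, 100 and 71 Pbrm1 cKO counts (log2 fold change 0.75, SE 0.90, DESeq2 adjusted p = 0.601). WT replicate 1 was far below the other 5 libraries. Kitl, its ligand, had 74, 135 and 141 WT counts and 140, 162 and 176 Pbrm1 cKO counts (0.18, SE 0.26, DESeq2 adjusted p = 0.670). Of 6 mast cell ligands and growth factors, 3 were tested and none passed, at the adjusted or the unadjusted threshold, and edgeR and limma voom tested 1 and called none. Among basophil genes Mcpt8 and Prss34 were at 0 in every library. Cd200r3, the 1 basophil gene tested, had 4, 16 and 8 WT counts and 7, 3 and 3 Pbrm1 cKO counts and did not pass.

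**Figure D3:**
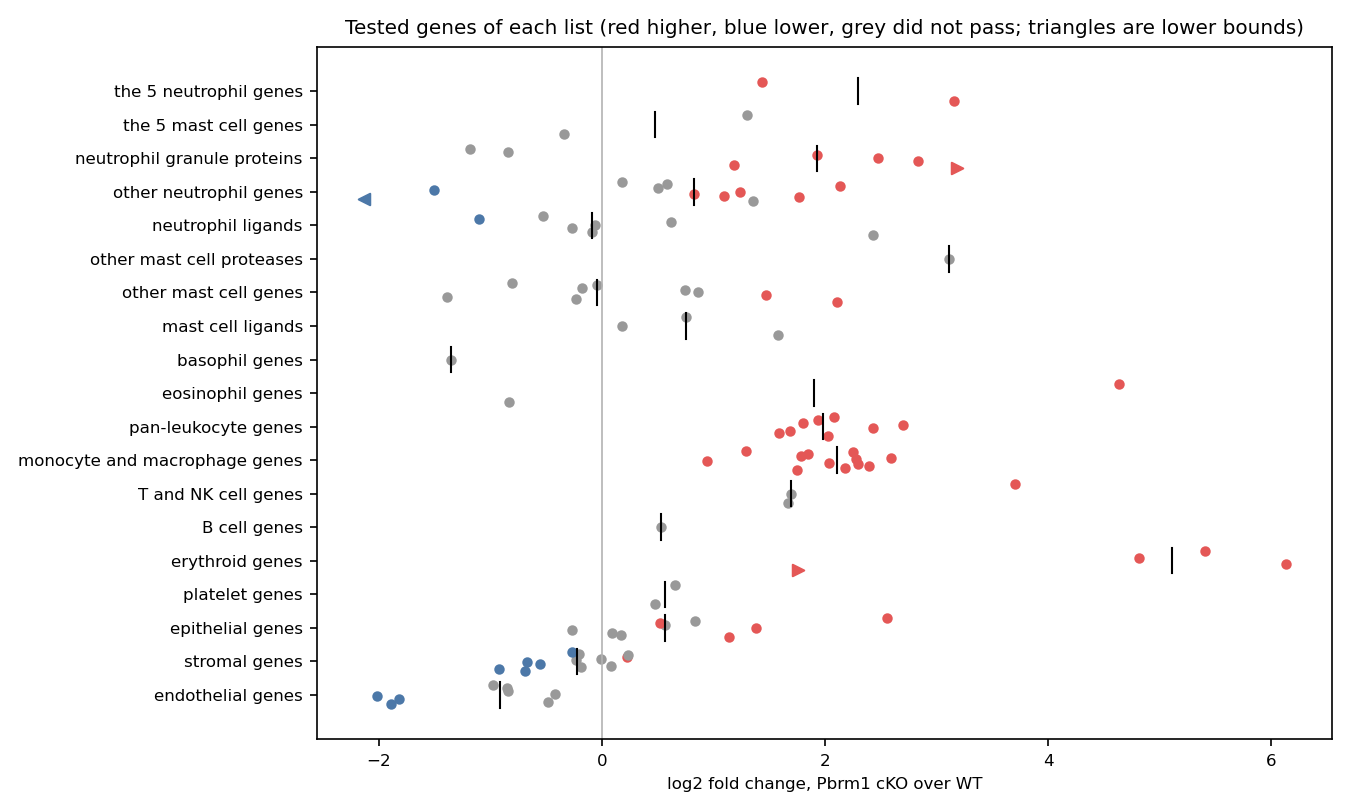
Log2 fold change, Pbrm1 cKO over WT (x axis), of each tested gene by list, with red for higher, blue for lower and grey for genes that did not pass, and a black line at each list's median. Triangles mark genes at 0 in every library of a group, drawn at their bound against 3 counts. The pan-leukocyte and monocyte and macrophage genes all lie above 0, and the mast cell members and the other mast cell genes lie on both sides of 0.

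The rise of Csf3r and S100a8 stood beside a rise of leukocyte transcripts in general. All 8 pan-leukocyte genes were higher, with a median log2 fold change of 1.98, and their sum went from 89.7 to 201 CPM in WT to 640 to 668 CPM in Pbrm1 cKO. Ptprc had 161, 333 and 301 WT counts and 1153, 1339 and 1178 Pbrm1 cKO counts. All 12 monocyte and macrophage genes were higher, with a median of 2.11 and sums of 254 to 600 CPM in WT and 2123 to 2276 CPM in Pbrm1 cKO. Both counts were the same without WT replicate 1. Erythroid genes were higher for 4 of 5, with sums of 2, 2 and 8 WT counts and 226, 170 and 277 Pbrm1 cKO counts. Platelet genes gave no call by DESeq2 or edgeR, with none under an unadjusted p of 0.05, and 1 call (Pf4) by limma voom. The part of these cells in the values of Csf3r and S100a8 was not tested.

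The lists for other cell types gave calls in both directions. Of the T and NK cell genes 3 were tested and Cd3g, a chain of the T cell receptor complex, was higher (3.71, SE 0.75). Of the eosinophil genes 2 were tested and 1 was higher (Ear2, a secreted ribonuclease, named after its values were seen), with summed levels of 0 to 0.604 CPM in WT and 1.10 to 1.36 CPM in Pbrm1 cKO. Of the B cell and basophil genes 1 each was tested by DESeq2, with no call and no unadjusted p under 0.05. Of the epithelial genes 4 of 9 tested were higher (Krt8, Krt19, Cdh1 and Wnt7a), and of the stromal genes 1 of 12 was higher (Pdgfra) and 5 were lower. Of the 8 endothelial genes 3 were lower (Cdh5, Egfl7 and Emcn), and 7 without WT replicate 1.

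Relative to leukocyte transcripts, the mean of Csf3r was 1.82-fold that of WT and the mean of S100a8 was 0.721-fold. Csf3r had 12.9, 4.50 and 3.87 counts per 1000 summed pan-leukocyte counts in WT replicates 1 to 3, against 11.6, 13.6 and 13.6 in Pbrm1 cKO replicates 1 to 3. WT replicate 1 lay among the Pbrm1 cKO libraries, and the other WT libraries were below them. S100a8 had 3.22, 5.26 and 6.57 in WT and 3.83, 3.33 and 3.69 in Pbrm1 cKO, so WT replicates 2 and 3 were above every Pbrm1 cKO library. The 5 mast cell genes summed to 1.61, 7.51 and 2.32 in WT and 1.82, 0.512 and 1.79 in Pbrm1 cKO, with the groups overlapping. These ratios are given as a description, with no test.

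**Figure D4:**
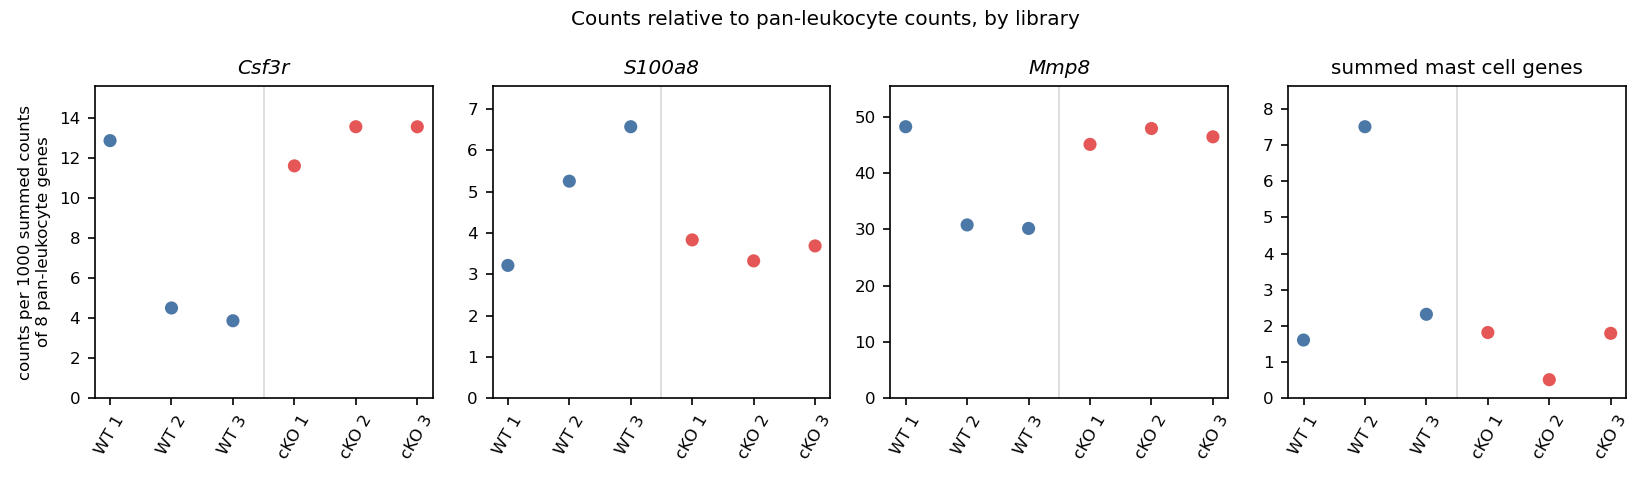
Counts per 1000 summed counts of 8 pan-leukocyte genes (y axis) for Csf3r, S100a8, Mmp8 and the summed mast cell genes in each WT (blue) and Pbrm1 cKO (red) library. For Csf3r and Mmp8, WT replicate 1 sits with the Pbrm1 cKO libraries and above WT replicates 2 and 3.

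The genes whose profile over the 6 libraries was most like that of the summed neutrophil markers were Mmp8, Csf1r and Slc43a2. Likeness was the root mean square difference of centred log2 profiles, which was 0.0531 for Mmp8, 0.0985 for Csf1r and 0.0990 for Slc43a2 among 10986 genes compared. Csf1r, the receptor for macrophage colony-stimulating factor, had 310, 425 and 423 WT counts and 2745, 3149 and 2542 Pbrm1 cKO counts. Mmp8 had 60, 82 and 78 WT counts and 447, 562 and 466 Pbrm1 cKO counts. For the summed mast cell markers the nearest genes were Dbpht2, Spint1 and Slfn4 at 0.654, 0.657 and 0.673. That sum was 2.14 to 22.2 normalized counts per library, against 22.4 to 166 for the neutrophil sum. At such low counts its distances cannot be set against those of the neutrophil sum. These values share libraries and depth and are descriptions.

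The chromosomal neighbours of the members were read in the same table. S100a8 and S100a9 lie in a cluster of 14 S100a genes on chromosome 3 (90511034 to 93564643), of which 11 were tested, 3 were higher and 5 were lower. The other higher genes, chosen after their values were seen, were S100a1 (0.98, SE 0.16) and S100a14 (2.26, SE 0.44). S100a6, the most abundant of the cluster, had 22673 to 31205 counts per library, and S100a8 had at most 39. Cma1 and Mcpt4 lie among 15 granule protease genes on chromosome 14 (55941451 to 56262260), of which 5 were at 0 in every library and 9 were at or under 3 counts in every library. Of these 15 genes, 3 were tested by DESeq2 and none passed, with 1 (Mcpt2, lower) at an unadjusted p under 0.05, and edgeR and limma voom kept none.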

How the data were processed

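Gene counts were deposited for 3 WT and 3 Pbrm1 cKO libraries. Per the file headers and the study's methods, the authors used cutadapt for trimming, HISAT2 for mapping to GRCm38 and featureCounts 1.6.4, reverse-stranded, for counting single-end reads over GENCODE mouse release 18 genes. The deposited values are raw counts, neither normalized nor pooled. Reads mapping to several places or overlapping several genes are dropped by default, which lowers counts of near-identical genes. The labels describe total RNA libraries with depletion, whereas the methods describe poly(A) selection.

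Counts were tested with DESeq2 1.42.0 in R 4.3.3, the tool of the study, with Wald tests on all 6 libraries, median-of-ratios size factors and Benjamini-Hochberg adjustment over all tested genes at 0.05. A positive log2 fold change is higher in Pbrm1 cKO. A gene was tested where DESeq2 gave an adjusted p. TPM used the gene lengths of the table and all genes. Groups with at most 3 counts in every library were at the floor, and bounds were taken against 3 counts per library. Counting intervals are exact 95% Clopper-Pearson intervals, which cover counting error only. Symbols were found for 54079 of 54232 identifiers. Windows of 50 bases, the study's read length, were compared in both orientations with GENCODE release 21 transcripts, and motifs were searched on both strands of RefSeq promoters. The scripts were tested on simulated data. Groups and replicate numbers follow the labels.

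The members and lists were chosen with earlier results of these data known. Named were all members, their ligands and receptors, up to 4 called genes of each list with the largest change and a mean of at least 10 normalized counts, and the 3 nearest profiles with a mean of at least 50. Genes named for being at or near 0 and the S100a and protease neighbours were chosen after their values were seen. Alternatives were edgeR 4.0.16, limma 3.58.1 voom, TMM scaling, filterByExpr, no independent filtering, no Cook's cutoff, a test against a log2 fold change of 1, an adjusted p of 0.1, a replicate block, each library left out, RPKM in place of TPM, and Ptprc alone as the leukocyte measure.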

Additional observations from a re-analysis of the deposited data

How the results depend on the processing

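Csf3r was higher in Pbrm1 cKO under every alternative run for it, with log2 fold changes from 3.01 to 3.35. S100a8 kept its direction in all of them and lost its call in 6, so the number of higher members was 1 in the test against a log2 fold change of 1, 1 with the replicate block (S100a8 log2 fold change 1.57, adjusted p = 0.0571) and 1 to 2 when each library was left out. No member was lower under any alternative. The log2 fold change of Cma1 was 1.46 with the replicate block and -0.93 to 3.28 with each library left out, positive without WT replicate 2, which holds most of its WT counts. The test against a log2 fold change of 1 called 293 genes higher and 229 lower over the table, 4 neutrophil genes outside the members, 1 mast cell gene, 5 pan-leukocyte genes and 5 monocyte and macrophage genes. The number of lower neutrophil genes was 1 under that test, edgeR, limma voom, filterByExpr and the replicate block, and 1 to 2 with each library left out. The number of lower neutrophil ligands was 0 under that test, edgeR and limma voom and 0 to 2 with each library left out, and of higher ligands 0 to 1. The causes were not tested. Same-numbered WT and Pbrm1 cKO libraries had correlations of deviations of 0.0401, -0.0388 and -0.000927, so the shared numbers were not read as pairing. RPKM in place of TPM gave a Csf3r fold of 9.05, against 10.2. With Ptprc as the leukocyte measure the neutrophil sum had a fold of 1.44, against 1.34 (SD 0.417). The mast cell sum had a fold of 0.383, against 0.360 (SD 0.362). All lay within the spread of the main values, which for the mast cell sum was as large as the fold itself. Depth limits Cxcr2, Fcer1a, Retnlg and Cpa3, for which a level under the limit of 3 counts was not detectable.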
